A study of Mus musculus with 10 samples.

Results

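The levels of 9 genes that make, carry, sense or limit retinoic acid were described in sorted thymic epithelial cells (TEC) of mice, out of the 15790 genes in the deposited count table. They are the retinaldehyde dehydrogenases Aldh1a1, Aldh1a2 and Aldh1a3, the binding proteins Rbp4, Crabp1 and Crabp2, the receptors Rara and Rarb, and the retinaldehyde reductase Dhrs3. The genes were picked by symbol, with their raw counts in all 3 groups already known, so their levels and fold changes are given as a description without a test. All 9 passed the filter on low counts.

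Retinol is oxidised to retinaldehyde and then, by the Aldh1a enzymes, to retinoic acid, which binds nuclear receptors of the Rar family paired with Rxr partners. Cyp26 enzymes break retinoic acid down, and Dhrs3 turns retinaldehyde back into retinol. In the thymus, mesenchymal cells are known as a source of retinoic acid for the epithelium, and retinoic acid can restrain the expansion of TEC.

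The libraries were bulk 3′-end RNA profiles made by MARS-seq. AR3_mut (3 libraries) came from C57BL/6 mice of 4.5 weeks with the genotype Foxn1 del AR3 mut, where Foxn1 is the forkhead factor that TEC need to differentiate. The nude group (4 libraries) came from nu/nu mice, which carry a loss-of-function Foxn1 mutation, of the ICR strain at 5 weeks. AR3_Het (3 libraries), the heterozygous control of the deletion, came from C57BL/6 mice of 4.5 weeks, and no library of a mouse without a Foxn1 mutation was analysed here. Strain and age cannot be told apart from genotype wherever nude is compared. The labels do not say that libraries of a group came from separate mice, so the p-values reflect the spread among these libraries alone, which may be technical. The labels name no sort markers.

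Depth ran from 1056066 to 2667973 counts in AR3_mut, 1901282 to 3302161 in nude and 2948283 to 4175851 in AR3_Het. Foxn1 had 2 to 4 counts per library in AR3_mut, 1 to 4 in nude and 1046 to 1844 in AR3_Het. AR3_Het 3 held 389 counts of the Y-linked gene Ddx3y and the other 9 libraries held 0 to 5, so it stands apart in sex. Summed over 5 cortical TEC genes, levels were 20.9 to 39.1 CPM (counts scaled to a common library size by TMM) in AR3_mut, 4.91 to 8.85 CPM in the nude libraries and 14775 to 19184 CPM in AR3_Het. Epithelial genes (Epcam, Krt8, Krt18, Cdh1 and Krt5) were present in every library, summing to 1702 to 4291 CPM in AR3_mut, 4027 to 5958 CPM in the nude libraries and 6622 to 10290 CPM in AR3_Het. Krt8 and Krt18 supplied most of each sum. Of the others, Epcam averaged 151 CPM in AR3_mut, 373 CPM in nude and 263 CPM in AR3_Het. In the same order Cdh1 averaged 133, 156 and 233 CPM, and Krt5 141, 108 and 785 CPM.

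The 3 synthesis genes parted in opposite directions. Aldh1a1 and Aldh1a2 were higher in AR3_mut and in nude than in AR3_Het, in every library. Aldh1a3 was lower in AR3_mut than in both other groups. In all, the CPM ranges of AR3_mut and AR3_Het did not overlap for 4 of the 9 genes (Aldh1a1, Aldh1a2, Aldh1a3 and Rarb), where 55% of all 12912 genes tested did not overlap. Those of nude and AR3_Het did not overlap for 3 genes (Aldh1a1, Aldh1a2 and Rbp4), where 53.8% of all genes did not. Those of AR3_mut and nude did not overlap for 6 genes (Aldh1a1, Aldh1a3, Rbp4, Crabp1, Rara and Dhrs3), where 20.7% of all genes did not. Since the genes were chosen with these values in view, nothing is read from these counts.

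**Figure D1:**
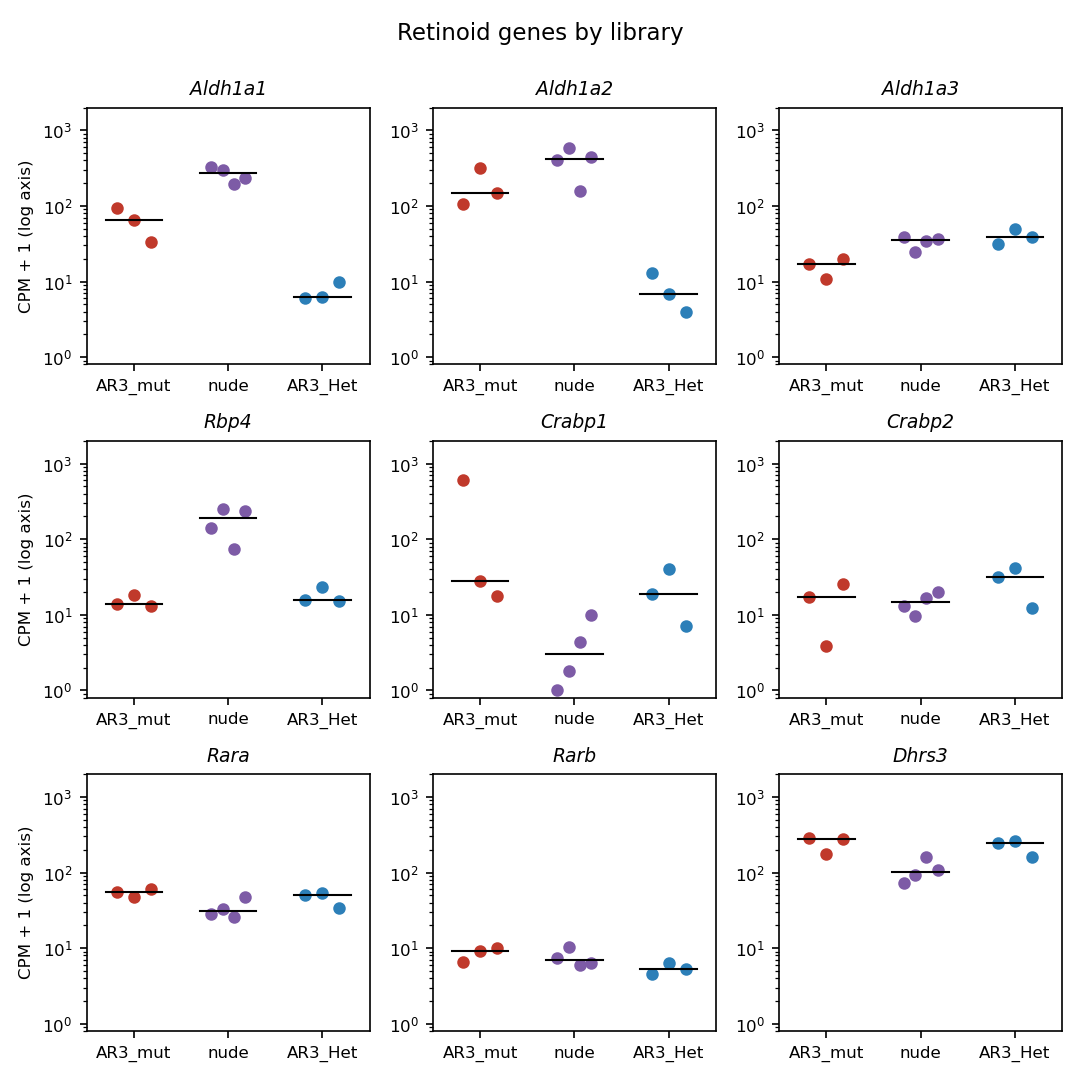
Level of each of the 9 retinoid genes in each library, as CPM + 1 on a log axis, with 1 point per library (AR3_mut and AR3_Het n = 3, nude n = 4) and a bar at the group median. Aldh1a1 and Aldh1a2 sit lowest in AR3_Het, Rbp4 is high in nude alone, and 1 AR3_mut library holds a Crabp1 level of 612 CPM.

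Aldh1a2 encodes the main retinaldehyde dehydrogenase of embryonic mesoderm. Its locus (ENSMUSG00000013584.5) is chromosome 9, 71215789 to 71296243, on the plus strand of GRCm38. It stood at 104, 315 and 149 CPM in AR3_mut 1 to 3, at 400, 588, 159 and 444 CPM in nude 1 to 4, and at 12, 5.76 and 3.0 CPM in AR3_Het 1 to 3. Every AR3_mut and nude library was above every AR3_Het library, while AR3_mut and nude overlapped, since AR3_mut 2 lay above nude 3. Averages came to 189 ± 111 CPM for AR3_mut (SD, n = 3), 398 ± 179 CPM in nude (SD, n = 4) and 6.92 ± 4.61 CPM in AR3_Het (SD, n = 3). The log2 fold change was 4.75 (SE 0.64) for AR3_mut over AR3_Het, 5.82 (SE 0.65) for nude over AR3_Het and −1.07 (SE 0.51) for AR3_mut over nude. Comparisons with the same AR3_Het libraries are not independent of each other.

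Aldh1a1 encodes a cytosolic enzyme that oxidises retinaldehyde and other aldehydes. Its locus (ENSMUSG00000053279.8) is chromosome 19, 20492715 to 20643465, on the plus strand of GRCm38. It was at 93.9, 64.8 and 32.8 CPM in AR3_mut 1 to 3, at 330, 302, 191 and 236 CPM in nude 1 to 4, and at 4.97, 5.15 and 8.80 CPM in AR3_Het 1 to 3. The 3 groups did not overlap, with nude highest and AR3_Het lowest. Its log2 fold change was 3.35 (SE 0.39) for AR3_mut over AR3_Het, 5.37 (SE 0.41) for nude over AR3_Het and −2.03 (SE 0.34) for AR3_mut over nude.

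A close paralog, Aldh1a7, lies beside Aldh1a1 on chromosome 19 (20692953 to 20727562, minus strand). Aldh1a7 counts were 13, 2 and 0 in AR3_mut 1 to 3, 8, 4, 171 and 3 in nude 1 to 4, and 29, 8 and 12 in AR3_Het 1 to 3. Only nude 3 stands out, and it held the lowest Aldh1a1 level among the nude libraries. No comparison of Aldh1a7 passed edgeR's quasi-likelihood test (adjusted p = 0.848 for AR3_mut and 0.152 for nude, each over AR3_Het, and 0.247 for AR3_mut over nude). Over the last 500 bases of the annotated coding transcripts, 0 words of 30 bases were shared between Aldh1a1 and Aldh1a7. The same count was 0 for every pair among the Aldh1a genes, for Crabp1 with Crabp2 and for every pair of Rara, Rarb and Rarg.

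Aldh1a3, another enzyme of the family, known for its role in eye and nasal development, ran the other way. Its locus (ENSMUSG00000015134.15) is chromosome 7, 66390890 to 66427517, on the minus strand. It was at 16.0, 9.84 and 18.9 CPM in AR3_mut 1 to 3, at 37.6, 23.9, 33.7 and 35.6 CPM in nude 1 to 4, and at 30.001, 48.2 and 38.4 CPM in AR3_Het 1 to 3. All AR3_mut libraries lay below all others, while nude and AR3_Het overlapped. The log2 fold change was −1.40 (SE 0.29) for AR3_mut over AR3_Het, −0.24 (SE 0.25) for nude over AR3_Het and −1.15 (SE 0.28) for AR3_mut over nude.

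The makeup of the Aldh1a counts differed between libraries. Aldh1a3 took 7.51%, 2.53% and 9.41% of the summed Aldh1a1, Aldh1a2 and Aldh1a3 counts in AR3_mut 1 to 3, and 2.62% to 8.79% in the nude libraries. It took 63.9%, 81.5% and 76.5% in AR3_Het 1 to 3. Among AR3_mut and nude the highest share, 9.41% in AR3_mut 3, had a 95% exact Clopper-Pearson interval of 5.76% to 14.3%, and the lowest AR3_Het share, 63.9%, had one of 57.3% to 70.1%. These intervals cover counting error only. Within AR3_mut the balance of the other two enzymes was uneven, with Aldh1a1 at 44.0% in AR3_mut 1 against 16.6% and 16.3% in AR3_mut 2 and 3. Summed, the 3 genes reached 201 to 390 CPM in AR3_mut, 384 to 914 CPM in the nude libraries and 47.0 to 59.1 CPM in AR3_Het. MARS-seq counts 3′ ends, so counts were not divided by transcript length, and the shares serve to compare libraries.

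**Figure D2:**
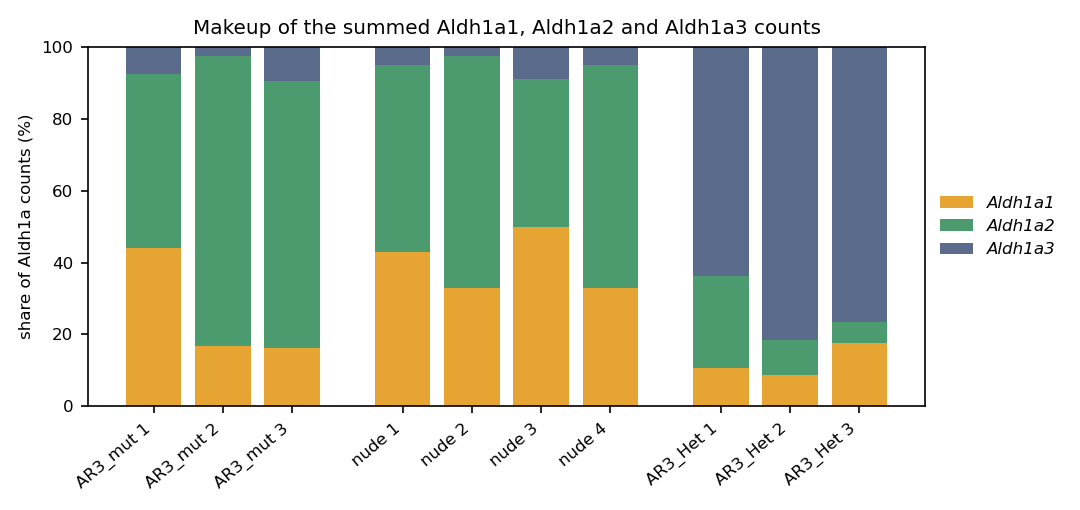
Share of the summed Aldh1a1, Aldh1a2 and Aldh1a3 counts taken by each gene (percent, stacked bars, 1 bar per library). Aldh1a3 takes 63.9% or more in the AR3_Het libraries and 9.41% or less in the AR3_mut and nude libraries.

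Genes of mesothelium, the lining of the body cavities and organs, moved with Aldh1a2. All 5 genes of the mesothelial list (Msln, Upk3b, Lrrn4, Wt1 and Upk1b) were higher by edgeR's quasi-likelihood test in AR3_mut and in nude than in AR3_Het. Of all genes, 21.2% were higher in AR3_mut and 23.7% in nude. Between AR3_mut and nude 0 of 5 differed, where 11.3% of all genes did. The list was chosen with earlier results of these data known, so nothing is read from these counts. Their summed level was 2377 to 3376 CPM in AR3_mut, 1871 to 5839 CPM in the nude libraries and 202 to 441 CPM in AR3_Het, with 0 of the 5 genes at 0 counts in any library. Wt1, a transcription factor of mesothelium, was at 65.7, 346 and 90.6 CPM in AR3_mut 1 to 3, at 392.3, 693, 136 and 347 CPM in nude 1 to 4, and at 2.9, 1.21 and 1.07 CPM in AR3_Het 1 to 3. The libraries with the most Wt1 within AR3_mut and nude, AR3_mut 2 and nude 2, also held the most Aldh1a2, and nude 3 held the least of both among nude. The summed fibroblast genes were likewise highest in AR3_mut 2 and nude 2 and lowest among nude in nude 3, so this order is shared with fibroblast genes. Msln was lowest in AR3_mut 2, at 1280 CPM against 1650 and 1670 CPM in AR3_mut 1 and 3, and among nude highest in nude 1. The log2 fold change of Wt1 was 6.53 (SE 0.89, adjusted p = 0.000186) for AR3_mut over AR3_Het and 7.75 (SE 0.91, adjusted p = 5.05e-05) for nude over AR3_Het.

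Counted within a library, Aldh1a2 had 158, 91.0 and 165 counts per 100 counts of Wt1 in AR3_mut 1 to 3, 84.9 to 128 in nude, and 414, 475 and 280 in AR3_Het 1 to 3. Per 100 counts of the whole mesothelial list it had 4.36, 9.33 and 5.12 in AR3_mut 1 to 3, 7.32 to 10.1 in nude and 2.97, 1.31 and 1.49 in AR3_Het 1 to 3. The Wt1 ratios in AR3_Het rest on 14, 4 and 5 counts of Wt1. Per 100 counts of Upk3b, Aldh1a2 had 23.0 to 47.3 in AR3_mut, 29.8 to 42.2 in nude and 82.4 to 127 in AR3_Het. Per 100 counts of Lrrn4 it had 64.0 to 84.7 in AR3_mut, 58.2 to 88.2 in nude and 87.5 to 173 in AR3_Het, so nude and AR3_Het overlapped. The ratios to Wt1, Upk3b and Lrrn4 run opposite to the ratio to the whole list, but the other 2 genes go with the list. Over AR3_Het, Msln rose by a log2 fold change of 2.28 in AR3_mut and 2.58 in nude, and Upk1b by 4.26 and 4.83. Aldh1a2 rose by more, 4.75 and 5.82, though the gap to Upk1b in AR3_mut is small. Msln makes up most of the list's counts in AR3_Het, and also in AR3_mut 1 (4212 of 6077) and AR3_mut 3 (1674 of 2930). Other stromal lists were set beside it. Fibroblast genes summed to 2784 to 5848 CPM in AR3_mut, 4487 to 12983 CPM in the nude libraries and 133 to 241 CPM in AR3_Het, and all 7 tested members of 8 were higher in both comparisons with AR3_Het. Endothelial genes summed to 4240 to 5358 CPM in AR3_mut, 740 to 1649 CPM in the nude libraries and 142 to 168 CPM in AR3_Het, with all 8 higher in both. Pericyte genes summed to 1153 to 1764 CPM in AR3_mut, 238 to 738 CPM in the nude libraries and 233 to 264 CPM in AR3_Het. All 6 pericyte genes were higher in AR3_mut, and 4 of 6 in nude, where the sum overlapped with AR3_Het. Beside these lists, 21.2% of all genes were higher in AR3_mut and 23.7% in nude, and nothing is read from the list counts. In bulk libraries, a change in the number of cells of a type and a change in RNA per cell cannot be told apart, and the part of these cells in the Aldh1a levels was not tested.

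**Figure D3:**
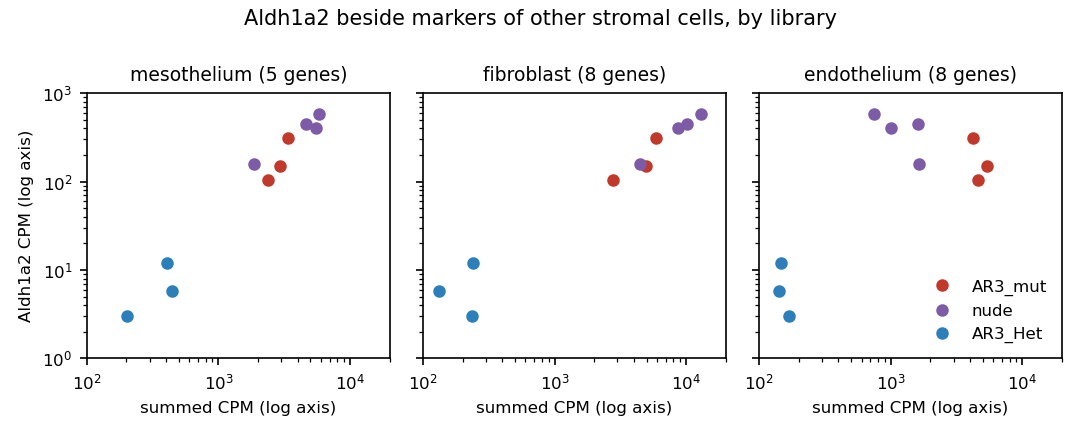
Aldh1a2 level (CPM, log axis) against the summed level of marker genes of mesothelium, fibroblast and endothelium (CPM, log axis), with 1 point per library coloured by group. Aldh1a2 and the mesothelial and fibroblast sums are lowest in AR3_Het and reach their highest values in nude, while the endothelial sum is highest in AR3_mut, at 4240 to 5358 CPM.

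Likeness of pattern was measured as Pearson's correlation of log2(CPM + 1) over the 10 libraries, among 7041 genes that averaged 20 CPM or more. The search left out the 9 genes themselves, predicted gene models, Rik and other clone names, ribosomal protein genes and antigen receptor segments. Since the libraries fall into 3 groups, the correlation mostly compares group levels and carries no p. Closest to Aldh1a2 were Rspo1, a secreted enhancer of Wnt signalling (r = 0.998), and Ildr2 (r = 0.997). Next was Lrrn4 of the mesothelial list (r = 0.996), named after its value was seen. Rspo1 averaged 193 CPM in AR3_mut, 500.6 CPM in nude and 7.72 CPM in AR3_Het. Closest to Aldh1a1 were Pdha1, a subunit of pyruvate dehydrogenase (r = 0.984), and Fam84b (r = 0.978), and closest to Aldh1a3 were Gcdh (r = 0.939) and Ppif (r = 0.930), genes of mitochondrial enzymes.

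Rbp4, the plasma carrier of retinol, was high in nude alone. Its locus (ENSMUSG00000024990.13) is chromosome 19, 38116629 to 38125281, on the minus strand. It was at 12.9, 17.4 and 11.9 CPM in AR3_mut 1 to 3, at 141, 253, 74.1 and 238 CPM in nude 1 to 4, and at 14.9, 22.4 and 14.4 CPM in AR3_Het 1 to 3. Every nude library lay above all others, and AR3_mut and AR3_Het overlapped. Averages came to 14.1 ± 2.89 CPM for AR3_mut (SD, n = 3), 176 ± 84.5 CPM in nude (SD, n = 4) and 17.2 ± 4.51 CPM in AR3_Het (SD, n = 3). Its log2 fold change was 3.37 (SE 0.41) for nude over AR3_Het, −3.64 (SE 0.43) for AR3_mut over nude and −0.27 (SE 0.45) for AR3_mut over AR3_Het. Closest to it was Pde6a, a phosphodiesterase subunit known from rod photoreceptors (r = 0.992). Pde6a averaged 0.193 CPM in AR3_mut, 59.7 CPM in nude and 0.826 CPM in AR3_Het. Both contrasts of Rbp4 that differ include the ICR libraries.

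Crabp1, a cytosolic retinoic acid binding protein, was set by a single library in AR3_mut. Its locus (ENSMUSG00000032291.8) is chromosome 9, 54764748 to 54773110, on the plus strand. Its counts were 1564, 46 and 17 in AR3_mut 1 to 3, 0, 2, 6 and 22 in nude 1 to 4, and 85, 128 and 29 in AR3_Het 1 to 3. In CPM these were 612, 26.6 and 16.9 in AR3_mut, 0 to 9.01 in nude and 17.6, 38.8 and 6.22 in AR3_Het. AR3_mut and AR3_Het overlapped, nude 4 reached into the range of AR3_Het, and all AR3_mut libraries lay above all nude libraries. The log2 fold change was 3.44 (SE 1.36) for AR3_mut over AR3_Het and 0.11 without AR3_mut 1. For AR3_mut over nude it was 6.09 (SE 1.51), and 2.76 without AR3_mut 1. For nude over AR3_Het it was −2.66 (SE 1.54), and −4.08 without nude 4.

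Other genes were uneven in the same library. Adh7, a retinol-oxidising alcohol dehydrogenase of surface epithelia, had 85 counts in AR3_mut 1, against 1 count each in AR3_mut 2 and 3. Lyz2, a lysozyme of macrophages and some epithelia, had 8115 counts in AR3_mut 1 and 355 and 50 counts in AR3_mut 2 and 3. The macrophage and dendritic cell list of 8 genes summed to 3254 CPM in AR3_mut 1, 332 CPM in AR3_mut 2 and 178 CPM in AR3_mut 3, with ranges of 76.3 to 208 CPM in the nude libraries and 255 to 593 CPM in AR3_Het. Lyz2 supplied 3170 CPM of that sum in AR3_mut 1, and the other genes of the list did not move together. Of these, C1qa had 28, 5 and 3 counts in AR3_mut 1 to 3 and C1qb 34, 4 and 5 counts. Ptprc had 11, 2 and 0 counts, and Adgre1 had 0, 1 and 0 counts. Csf1r went the other way, at 28.9 CPM in AR3_mut 1 against 87.4 and 94.6 CPM in AR3_mut 2 and 3. Cd68 was at 21.5, 31.8 and 22.9 CPM in AR3_mut 1 to 3, and Itgax had 3, 0 and 3 counts. In AR3_Het 1 to 3, C1qa had 400, 61 and 80 counts and Ptprc 433, 147 and 297 counts. The part of these cells in the Crabp1 level was not tested. Closest in pattern to Crabp1 were Hp, the acute-phase protein haptoglobin (r = 0.952), and Lrrc23 (r = 0.944).

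Crabp2, the binding protein that passes retinoic acid to the receptors, did not separate the groups. Its locus (ENSMUSG00000004885.5) is chromosome 3, 87948666 to 87953376, on the plus strand. It was at 16.4, 2.89 and 24.9 CPM in AR3_mut 1 to 3, at 11.9, 8.66, 15.5 and 19.2 CPM in nude 1 to 4, and at 30.6, 40.9 and 11.4 CPM in AR3_Het 1 to 3. All 3 pairs of groups overlapped, and AR3_mut 2 and AR3_Het 3 were the lowest of their groups. On the log2 scale the difference was −0.96 (SE 0.61) for AR3_mut over AR3_Het, −0.99 (SE 0.54) for nude over AR3_Het and 0.04 (SE 0.60) for AR3_mut over nude. Tmem80 (r = 0.963) and Phb2 (r = 0.949) were closest to it.

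Rara, the retinoic acid receptor expressed in most tissues, was higher in AR3_mut than in nude. Its locus (ENSMUSG00000037992.16) is chromosome 11, 98927818 to 98974942, on the plus strand. It was at 54.4, 46.9 and 59.7 CPM in AR3_mut 1 to 3, at 27.1, 32.2, 24.9 and 45.9 CPM in nude 1 to 4, and at 48.8, 52.1 and 33.3 CPM in AR3_Het 1 to 3. AR3_mut lay above nude by a narrow margin, and AR3_Het overlapped with both. Its log2 fold change was 0.26 (SE 0.25) for AR3_mut over AR3_Het, where it became −0.027 when library totals replaced TMM, and −0.45 (SE 0.23) for nude over AR3_Het. For AR3_mut over nude it was 0.71 (SE 0.24). Irf2 (r = 0.933) and Pdlim1 (r = 0.931) were closest to it.

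Rarb, a receptor gene that retinoic acid itself switches on in many cells, had few counts in every library. Its locus (ENSMUSG00000017491.9) is chromosome 14, 16430839 to 16819156, on the minus strand. Rarb counts were 14, 14 and 9 in AR3_mut 1 to 3, 18, 23, 9 and 13 in nude 1 to 4, and 17, 18 and 20 in AR3_Het 1 to 3. In CPM these were 5.47, 8.10 and 8.96 in AR3_mut, 6.50, 9.48, 4.98 and 5.32 in nude, and 3.52, 5.46 and 4.29 in AR3_Het. The lowest AR3_mut library lay just above the highest AR3_Het library, and nude overlapped with both. On the log2 scale the difference was 0.73 (SE 0.39) for AR3_mut over AR3_Het, 0.59 (SE 0.35) for nude over AR3_Het and 0.15 (SE 0.37) for AR3_mut over nude. The 3′ end of Rarb overlaps that of Top2b on the opposite strand, and the labels do not say whether counting used strand, so some of these few counts could belong to either gene. Top2b averaged 52.1 CPM in AR3_mut, 42.4 CPM in nude and 42.8 CPM in AR3_Het. Lrrc49 (r = 0.893) and Tgif2 (r = 0.891) were closest to Rarb.

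Dhrs3, which lowers retinoic acid by reducing its precursor and is itself induced by retinoic acid, was lower in nude than in AR3_mut. Its locus (ENSMUSG00000066026.14) is chromosome 4, 144892827 to 144928209, on the plus strand. It was at 285, 177 and 277 CPM in AR3_mut 1 to 3, at 72.6, 92.0, 161 and 108 CPM in nude 1 to 4, and at 242, 259 and 160 CPM in AR3_Het 1 to 3. AR3_mut lay above nude, AR3_mut and AR3_Het overlapped, and AR3_Het 3 fell just within the range of nude. Its log2 fold change was 1.19 (SE 0.28) for AR3_mut over nude and −1.03 (SE 0.28) for nude over AR3_Het. For AR3_mut over AR3_Het it was 0.16 (SE 0.30), and −0.13 when library totals replaced TMM. Wbp11 (r = 0.967) and the potassium channel gene Kcnq1 (r = 0.954) were closest to it.

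**Figure D4:**
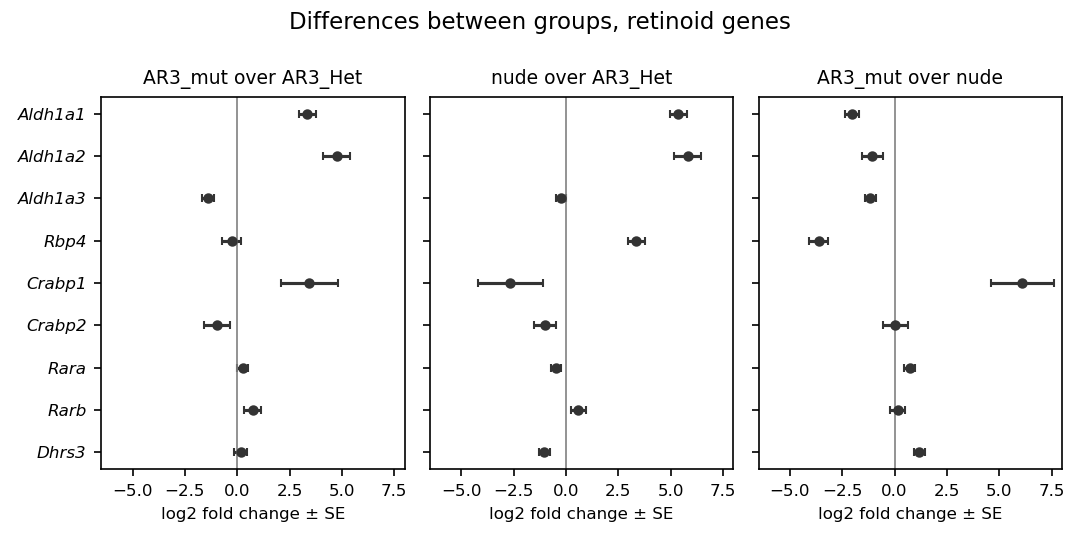
Log2 fold change of each retinoid gene for AR3_mut over AR3_Het, nude over AR3_Het and AR3_mut over nude, with bars for the SE of the edgeR fit over 10 libraries. Aldh1a1 and Aldh1a2 lie at 3.35 or more over AR3_Het, Rbp4 departs from 0 in the comparisons with nude, and Crabp1 has the widest bars.

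Rarb and Cyp26a1 are textbook targets of retinoic acid through paired receptor sites in their promoters, so the promoters of the retinoid genes were searched. The motif was a direct repeat of half-sites with 5 bases between them, NGNTCANNNNNNGNTCA, where N is any base, on both strands, in RefSeq windows of GRCm38.p6 from 250 bases before to 50 after each start. It occurred in 0.861% of 32851 promoter windows of all genes. Of 65 windows, which belong to 44 of the retinoid genes in the table, 2 held it, those of Rarb and Cyp26a1. Since these 2 genes prompted the search, nothing is read from how often the retinoid windows matched. The windows covered 7 of the 9 genes. A repeat with 2 bases between the half-sites, NGNTCANNNGNTCA, searched separately, occurred in 1.11% of all windows and in 0 of the 65. The sites follow with 6 bases on each side, on the strand of the gene and with the match in capitals.
Rarb: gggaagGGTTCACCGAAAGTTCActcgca
Cyp26a1: taaagaTGAACTTTGGGTGAACTaatttg
The Rarb stretch is chr14:16575507-16575535 on the minus strand, and its match lies 53 to 37 bases before the RefSeq start. In GENCODE, 2 transcripts of Rarb start further upstream and have an exon over the match. The Cyp26a1 stretch is chr19:37697770-37697798 on the plus strand, with the match on the opposite strand, 32 to 16 bases before the start. The half-sites of Rarb are GGTTCA and AGTTCA, and both of Cyp26a1 are AGTTCA. A match is a description of the letters and not a measure of binding.

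These 2 genes with the same kind of repeat had different values. Rarb overlapped between nude and AR3_Het, and in AR3_mut it lay just above AR3_Het (log2 fold change 0.73, SE 0.39), as given above. It rests on 9 to 23 counts per library, some of which could belong to Top2b. Cyp26a1, the main enzyme that clears retinoic acid in the embryo, gave counts of 5, 0 and 1 in AR3_mut 1 to 3, 6, 18, 4 and 13 in nude 1 to 4, and 106, 120 and 48 in AR3_Het 1 to 3. Cyp26a1 fell in AR3_mut, to 0.984 ± 0.978 CPM against 22.9 ± 13.1 CPM in AR3_Het (SD, n = 3 each), on the log2 scale −4.32 (SE 0.79, edgeR quasi-likelihood adjusted p = 0.00106). It also fell in nude, to 4.28 ± 2.56 CPM (SD, n = 4), on the log2 scale −2.38 (SE 0.56, adjusted p = 0.00422). All AR3_mut and nude libraries lay below all AR3_Het libraries. AR3_mut over nude gave −1.93 (SE 0.86, adjusted p = 0.171) at 0 to 5 counts per AR3_mut library and did not pass the test. Cyp26b1, the other measured enzyme of this kind, was at 22.5 ± 7.23 CPM in AR3_mut (SD, n = 3), 11.5 ± 4.79 CPM in nude (SD, n = 4) and 26.4 ± 17.4 CPM in AR3_Het (SD, n = 3). It passed the test for nude over AR3_Het alone (−1.20, SE 0.45, adjusted p = 0.0458), a call lost in 8 of 17 alternatives, among them without AR3_mut 1, AR3_mut 3, AR3_Het 1 (adjusted p = 0.305), nude 1, nude 2 or nude 3.

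The rest of the pathway was read from 60 further genes, of which 54 were in the table and 44 passed the filter on low counts. A gene can pass that filter through the group in which it is high. Ttr, Rdh12, Cyp26a1, Rxrg, Cdx1 and Stra8 passed it through AR3_Het alone, so their calls as lower are not independent of the filter. Values with ± are means and SD over 3 AR3_mut, 4 nude and 3 AR3_Het libraries. By edgeR's quasi-likelihood test with Benjamini-Hochberg adjustment over all genes, 12 of the 44 were higher and 9 lower in AR3_mut than in AR3_Het, where 41.8% of all genes differed (21.2% higher and 20.6% lower). In nude, 11 were higher and 12 lower than in AR3_Het, where 47.9% of all genes differed (23.7% higher and 24.2% lower). Between AR3_mut and nude, 6 were higher and 2 lower in AR3_mut, where 11.3% of all genes differed (7.58% higher and 3.71% lower). These 8 calls became 3 without AR3_mut 1, 4 without nude 1 and 5 without AR3_mut 2 or nude 2. Over all genes, 1458 calls became 904 without AR3_mut 1, 883 without nude 1 and 1993 without nude 3. The median log2 fold change of the 44 was −0.055 for AR3_mut over AR3_Het (all genes −0.036), −0.28 for nude over AR3_Het (all genes −0.026) and −0.027 for AR3_mut over nude (all genes 0). With library totals in place of TMM, the split was 10 higher and 16 lower in AR3_mut, and 10 higher and 20 lower in nude, against AR3_Het. That scaling moved the fold changes over AR3_Het by a median of −0.29 in AR3_mut and −0.38 in nude. Without AR3_Het 3, the library that stands apart in sex, 18 of the further genes were called for AR3_mut and 21 for nude against AR3_Het.

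Genes of retinol uptake, transport and storage moved both ways. Of 7 tested, 2 rose and 2 fell in AR3_mut, and 3 rose and 2 fell in nude. Beside this list and those of oxidoreductases, receptors and cofactors stand the shares of all genes. These were 21.2% higher and 20.6% lower in AR3_mut, and 23.7% higher and 24.2% lower in nude, so nothing is read from the list counts. Rbp7, a cellular retinol binding protein of adipose tissue and endothelium, rose to 214 ± 28.4 CPM in AR3_mut (SD, n = 3) and, in nude, to 272 ± 122 CPM (SD, n = 4), against 7.41 ± 4.72 CPM in AR3_Het (SD, n = 3). Its log2 fold change was 4.84 (SE 0.55, adjusted p = 3.92e-05) in AR3_mut and 5.18 (SE 0.55, adjusted p = 1.78e-05) in nude. Scarb1, a receptor for lipoproteins and carotenoids, rose to 361 ± 22.3 CPM in AR3_mut (3.83, SE 0.25, adjusted p = 8.05e-07) and to 100 ± 23.3 CPM in nude (1.97, SE 0.23, adjusted p = 2.82e-05), against 25.4 ± 5.77 CPM in AR3_Het. Scarb1 was also higher in AR3_mut than in nude (1.85, SE 0.21, adjusted p = 0.000609). The endothelial, fibroblast and mesothelial sums given above were higher in the same groups. Between AR3_mut and nude, the endothelial sum and Scarb1 were higher in AR3_mut, and Rbp7 was not (−0.34, SE 0.43, edgeR adjusted p = 0.676). The part of endothelium in the Rbp7 and Scarb1 levels was not tested.

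Ttr, transthyretin, the plasma partner of Rbp4, fell. Its counts were 0, 1 and 0 in AR3_mut 1 to 3, 2, 1, 1 and 2 in nude 1 to 4, and 172, 148 and 203 in AR3_Het 1 to 3. The log2 ratio of pooled CPM was −7.76 for AR3_mut over AR3_Het (95% counting interval −13.06 to −5.27), and the fitted log2 fold change for nude over AR3_Het was −5.93 (SE 0.37, adjusted p = 5.36e-07). Stra6, the membrane receptor for Rbp4, was at 10.1 ± 6.81 CPM in AR3_mut, 10.3 ± 10.1 CPM in nude and 30.9 ± 11.7 CPM in AR3_Het, and passed in neither comparison (adjusted p = 0.0899 and 0.0566 against AR3_Het).

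Among 11 tested oxidoreductases of retinol and retinaldehyde, 3 rose and 3 fell in AR3_mut, and 2 rose and 2 fell in nude. Rdh10, the retinol dehydrogenase that starts embryonic retinoic acid synthesis, rose in both. It was at 55.5, 34.2 and 27.9 CPM in AR3_mut 1 to 3, at 48.4, 37.5, 26.0 and 34.0 CPM in nude 1 to 4, and at 7.86, 10.6 and 7.94 CPM in AR3_Het 1 to 3. Every AR3_mut and nude library was above every AR3_Het library. On the log2 scale the difference was 2.19 (SE 0.31, adjusted p = 0.000186) in AR3_mut and 2.06 (SE 0.30, adjusted p = 0.000148) in nude, and AR3_mut over nude gave 0.12 (SE 0.27, adjusted p = 0.839). Rdh12, a retinaldehyde reductase known from photoreceptors, fell to 1.82 ± 0.874 CPM in AR3_mut (−3.43, SE 0.51, adjusted p = 0.000237) and 2.67 ± 1.54 CPM in nude (−3.07, SE 0.42, adjusted p = 0.000105), against 22.1 ± 5.24 CPM in AR3_Het.

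Rdh5, a cis-retinol dehydrogenase, rose in AR3_mut (2.07, SE 0.39, adjusted p = 0.00118), to 23.4 ± 0.656 CPM against 5.58 ± 1.43 CPM in AR3_Het, and was at 10.4 ± 4.83 CPM in nude (adjusted p = 0.0713). Dhrs4, a carbonyl reductase that acts on retinaldehyde, rose in nude to 183 ± 17.9 CPM (1.09, SE 0.16, adjusted p = 0.00021), against 86.3 ± 9.98 CPM in AR3_Het, and was lower in AR3_mut than in nude (−0.68, SE 0.16, adjusted p = 0.0226), a call lost without AR3_mut 1, AR3_mut 3 or nude 1 (adjusted p = 0.0955, 0.0577 and 0.0611) and with only the 2 groups in the fit (0.0546). Adh1, an alcohol dehydrogenase that oxidises retinol, was at 365, 79.3 and 241 CPM in AR3_mut 1 to 3, at 36.5, 28.9, 60.8 and 67.1 CPM in nude 1 to 4, and at 96.4, 102 and 61.6 CPM in AR3_Het 1 to 3. It was higher in AR3_mut than in nude (2.25, SE 0.45, adjusted p = 0.00945). Its call against AR3_Het (1.40, adjusted p = 0.0335) was lost in 8 of 17 alternatives, among them without AR3_mut 1 (adjusted p = 0.156), AR3_mut 3 (0.0707) or any AR3_Het library (0.0818, 0.0717 and 0.12). Rdh11 passed in AR3_mut (−1.03, SE 0.37, adjusted p = 0.0443) and lost its call in 9 of 17 alternatives, at 0.054 to 0.118 without AR3_mut 2, AR3_mut 3, nude 1, nude 2 or any AR3_Het library.

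Of 12 tested receptors and cofactors, 2 rose and 1 fell in AR3_mut, and 1 rose and 3 fell in nude. Rarg, the third retinoic acid receptor, was at 61.0, 69.5 and 70.7 CPM in AR3_mut 1 to 3, at 69.0, 79.2, 65.3 and 79.4 CPM in nude 1 to 4, and at 38.3, 38.2 and 27.7 CPM in AR3_Het 1 to 3. It rose in both, on the log2 scale by 0.95 (SE 0.18, adjusted p = 0.00131) in AR3_mut and 1.08 (SE 0.17, adjusted p = 0.000261) in nude, and AR3_mut and nude overlapped (−0.13, SE 0.17, adjusted p = 0.675). Fabp5, which carries fatty acids and can bring retinoic acid to the receptor Ppard, fell to 236 ± 77.0 CPM in AR3_mut (−3.06, SE 0.29, adjusted p = 8.96e-06) and 239 ± 61.3 CPM in nude (−3.05, SE 0.26, adjusted p = 3.42e-06), against 1977 ± 315 CPM in AR3_Het. Ppard itself was higher in AR3_mut (0.89, SE 0.27, adjusted p = 0.0182), at 49.3 ± 10.4 CPM against 26.2 ± 4.34 CPM in AR3_Het, and lost that call without AR3_mut 3, AR3_Het 1 or AR3_Het 3 (adjusted p = 0.0666, 0.0555 and 0.0691), and also when library totals replaced TMM (0.0956).

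Of the Rxr partners, Rxra was at 93.4 ± 10.5 CPM in AR3_mut, 57.4 ± 10.7 CPM in nude and 84.8 ± 13.1 CPM in AR3_Het. It was lower in nude than in AR3_Het (−0.56, SE 0.18, adjusted p = 0.0241) and higher in AR3_mut than in nude (0.71, SE 0.19, adjusted p = 0.0319). Both Rxra calls were lost without nude 1 (adjusted p = 0.0646 and 0.079), the first also without AR3_Het 2 or AR3_Het 3 (0.0629 and 0.0755) and the second also without AR3_mut 1, AR3_mut 2, AR3_Het 2 or nude 2 (0.0965, 0.0974, 0.0551 and 0.0624) and with only the 2 groups in the fit (0.0507). Rxrg was at 3.54 ± 1.65 CPM in AR3_mut, 1.17 ± 0.901 CPM in nude and 8.59 ± 3.39 CPM in AR3_Het, and fell in nude (−2.82, SE 0.55, adjusted p = 0.00119). Rxrb passed in none of the 3 comparisons (adjusted p = 0.916 for AR3_mut and 0.393 for nude over AR3_Het, and 0.624 for AR3_mut over nude).

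**Figure D5:**
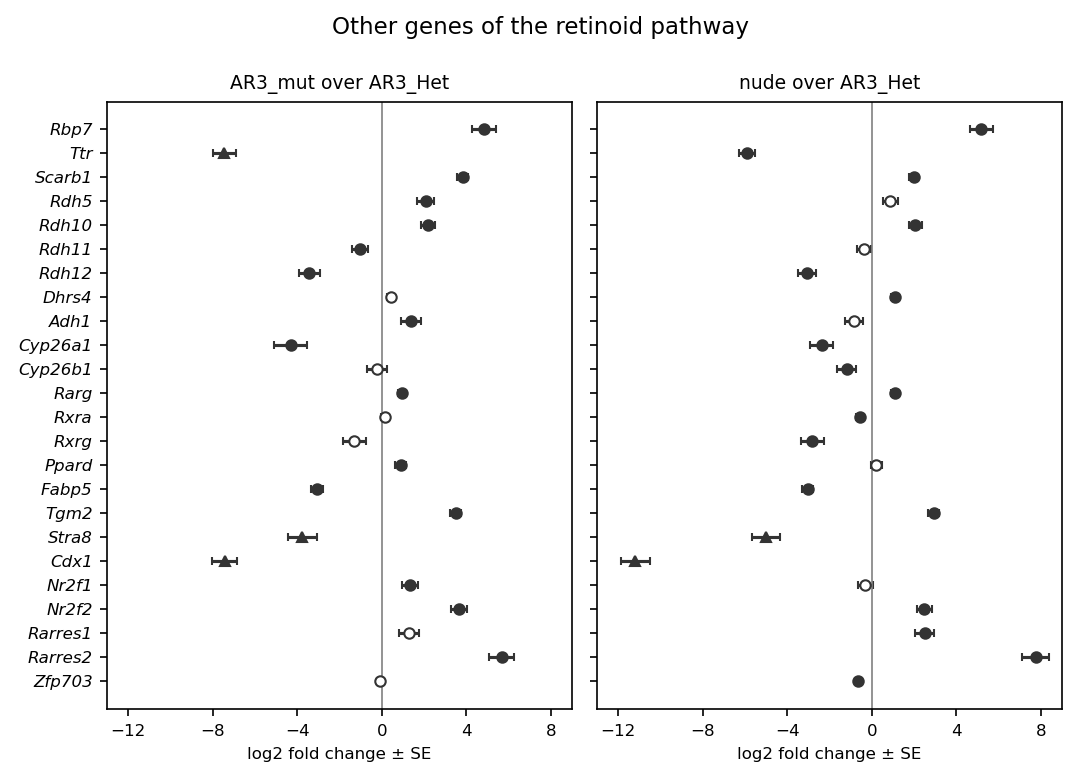
Log2 fold change over AR3_Het of the named further genes of the retinoid pathway, in AR3_mut and in nude, with bars for the SE of the edgeR fit. Filled symbols passed an adjusted p of 0.05, and triangles mark genes with 3 counts or fewer over the AR3_mut or nude group, whose fitted size is no measure of the fall. Rbp7, Scarb1, Rdh10, Rarg, Tgm2, Nr2f2 and Rarres2 are higher in both, and Ttr, Rdh12, Cyp26a1, Fabp5, Stra8 and Cdx1 are lower in both.

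Genes reported to respond to retinoic acid moved both ways, as did genes at large. Of 12 tested, 5 rose and 2 fell in AR3_mut, and 5 rose and 3 fell in nude. Of all genes, 21.2% rose and 20.6% fell in AR3_mut, and 23.7% rose and 24.2% fell in nude. Nothing is read from the list counts. Rarres2, which encodes the secreted chemoattractant chemerin, was at 959, 2320 and 2500 CPM in AR3_mut 1 to 3, at 9340, 9840, 3180 and 10300 CPM in nude 1 to 4, and at 54.0, 38.2 and 21.5 CPM in AR3_Het 1 to 3. The groups did not overlap. It rose in AR3_mut (5.67, SE 0.58, adjusted p = 1.87e-05) and in the nude libraries (7.75, SE 0.63, adjusted p = 2.96e-06), and AR3_mut was below nude (−2.08, SE 0.48, adjusted p = 0.0178), a call lost without AR3_mut 1 (adjusted p = 0.0565). Tgm2, a transglutaminase, rose to 929 ± 89.3 CPM in AR3_mut (3.50, SE 0.27, adjusted p = 2.43e-06) and 621 ± 170 CPM in nude (2.92, SE 0.25, adjusted p = 4.05e-06), against 82.2 ± 13.2 CPM in AR3_Het.

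Rarres1 rose in nude to 120 ± 71.0 CPM (2.49, SE 0.47, adjusted p = 0.000957), against 21.5 ± 7.81 CPM in AR3_Het, and was at 52.8 ± 8.20 CPM in AR3_mut (adjusted p = 0.0515). Nr2f2, an orphan receptor of mesenchyme and veins, was at 18.3 ± 5.12 CPM in AR3_mut, 8.12 ± 1.34 CPM in nude and 1.45 ± 0.373 CPM in AR3_Het. It rose in AR3_mut (3.66, SE 0.37, adjusted p = 1.49e-05) and in the nude libraries (2.48, SE 0.36, adjusted p = 0.000152). It was higher in AR3_mut than in nude (1.18, SE 0.30, adjusted p = 0.0273), a call lost without AR3_mut 1, AR3_mut 2, nude 1 or nude 2 (adjusted p = 0.081, 0.106, 0.0638 and 0.07). Its relative Nr2f1 was at 34.3 ± 7.16 CPM in AR3_mut, 11.1 ± 4.45 CPM in nude and 13.7 ± 4.69 CPM in AR3_Het, and was higher in AR3_mut than in nude (1.64, SE 0.35, adjusted p = 0.0127) and than in AR3_Het (1.32, SE 0.37, adjusted p = 0.0123), the last lost without AR3_mut 2 or AR3_Het 1 (adjusted p = 0.0579 and 0.0657). Zfp703, a zinc finger gene, was at 199 ± 8.58 CPM in AR3_mut, 135 ± 18.8 CPM in nude and 210 ± 7.0 CPM in AR3_Het. It fell in nude (−0.64, SE 0.15, adjusted p = 0.0034), and its difference between AR3_mut and nude (0.56, SE 0.15, adjusted p = 0.0319) was lost in 9 of 17 alternatives, at 0.063 to 0.0822 without nude 1, nude 2, AR3_Het 1, AR3_Het 2 or any AR3_mut library.

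Cdx1, an intestinal homeobox gene, had 3 counts over the AR3_mut libraries, 0 over the nude libraries and 587, 446 and 288 counts in AR3_Het 1 to 3. Its log2 ratio of pooled CPM was −7.51 for AR3_mut over AR3_Het (95% counting interval −9.79 to −5.96), and it was at least 325-fold lower in nude, where the 0 was set to 3 counts for the nude libraries together. Stra8, a gene that retinoic acid induces at the start of meiosis, had 3 counts over AR3_mut, 2 over nude and 31, 39 and 31 counts in AR3_Het 1 to 3, a log2 ratio of −3.80 (95% counting interval −6.10 to −2.21) and −5.22 (−8.29 to −3.33). Cdx1 and Stra8 were called in both comparisons with AR3_Het (edgeR adjusted p = 2.0e-05 and 0.00121 in AR3_mut, 4.16e-06 and 9.58e-05 in nude). Both passed the filter on low counts through AR3_Het alone, so these calls as lower add nothing to the counts. Among medullary TEC genes, Aire, Fezf2 and Cd40 fell with Cdx1 and Stra8, and also passed the filter through AR3_Het alone. Aire averaged 1.30 CPM in AR3_mut, 0.241 CPM in nude and 252 CPM in AR3_Het. Fezf2 averaged 0.261, 0 and 258 CPM in the same order, and Cd40 5.10, 1.41 and 132 CPM. Krt14 averaged 213, 168 and 435 CPM and was called lower in nude alone. Cldn4 averaged 242, 271 and 141 CPM, higher than in AR3_Het, and passed in neither comparison. The sum in AR3_mut and nude is mostly Krt14 and Cldn4. The medullary list of 5 genes summed to 115 to 655 CPM in AR3_mut, 310 to 607 CPM in the nude libraries and 941 to 1420 CPM in AR3_Het, with 3 of 5 lower in AR3_mut and 4 of 5 in nude. Thymocyte genes (7 of 7 lower in both) summed to 7.82 to 10.9 CPM in AR3_mut, 3.30 to 7.37 CPM in the nude libraries and 552 to 1026 CPM in AR3_Het. All of them but Lck passed the filter through AR3_Het alone. Of all genes, 20.6% were lower in AR3_mut and 24.2% in nude, and nothing is read from the counts of these 2 lists. The part of medullary TEC or thymocytes in the Cdx1 and Stra8 values was not tested.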

How the data were processed

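The authors deposited raw counts per gene for 10 MARS-seq libraries, per the file headers, and columns were matched to libraries by title. Tools named in the submitters' processing notes, with no roles, are STAR 2.4.2a, HTSeq, cutadapt, bcl2fastq and DESeq2, and the build is mm10. The labels do not say whether molecular identifiers were collapsed, so intervals and floors cover counting error only. A further 20 columns of per-sample values were not used. The highest count of every gene was 6 or more, so the table had been filtered.

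Counts were analysed with R 4.3.3 and edgeR 4.0.16: filterByExpr (minimum count 10, minimum total 15) kept 12912 of 15790 genes, libraries were scaled by TMM, and a robust quasi-likelihood model with group as its only term was fitted to all 10 libraries. Tests were two-sided, with Benjamini-Hochberg adjustment over all genes and a threshold of 0.05. The SE is the absolute log2 fold change divided by the square root of F. Means are CPM ± SD over libraries. DESeq2 1.42.0 and limma 3.58.1 served as alternatives. Libraries of a group differed beyond counting error (chi-square per degree of freedom 4.29 or more).

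The 9 genes and all lists were chosen with earlier results of these data known. Beside the 9, the text names further retinoid genes that passed in a comparison with AR3_Het at 5 CPM or more, up to 5 per list and comparison by fold change, those that passed between AR3_mut and nude, Aldh1a7, and the 2 genes closest in pattern to each of the 9. Names outside this rule were chosen after their values were seen. Some genes that the rule selects are not reported here. Promoters are RefSeq's of GRCm38.p6 and gene positions GENCODE M21's of GRCm38, the assembly also called mm10.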

Additional observations from a re-analysis of the deposited data

Results flagged for a closer look

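Among 34 named genes whose 4 nude libraries were screened for a sample far from the others, 2 were flagged, and about 1 in 20 such groups is flagged by chance. Rarres2 was at 3178 CPM in nude 3, far below the other nude libraries. Aldh1a7 was at 94.6 CPM in nude 3, far above the other nude libraries, which held 1.23 to 2.89 CPM. Groups of 3 libraries were not screened.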

How the results depend on the processing

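Each result was recomputed under 17 alternatives, of which 10 leave out a library. Library totals in place of TMM moved the log2 fold change of Rara to −0.027 for AR3_mut over AR3_Het, and, for nude over AR3_Het, those of Aldh1a1 to 4.97, Aldh1a3 to −0.63, Rara to −0.82 and Rarb to 0.21. That scaling also gave 34.7% of 5947 called genes as higher in AR3_mut and 30.6% of 7012 as higher in nude, where TMM gave 50.7% and 49.5%. With only the 2 groups compared in the fit, 952 genes and 5 further retinoid genes were called for AR3_mut against nude, where the fit to all libraries called 1458 and 8. With the replicate number as a block, these counts were 948 and 4, and Crabp1 was −4.47 for nude over AR3_Het. The block also ended the calls of Dhrs4, Rarres2, Nr2f2 and Zfp703 for AR3_mut over nude (adjusted p = 0.0826, 0.0846, 0.0794 and 0.0552) and of Adh1 for AR3_mut over AR3_Het (0.0794). The block rests on shared numbers alone, since same-numbered libraries correlated in their deviations at −0.32 to 0.16 and the same number matched best in 3 of 18 cases. Leaving out 1 library at a time gave 883 (without nude 1) to 1993 (without nude 3) genes and 3 to 10 further retinoid genes for AR3_mut against nude, with 904 and 3 without AR3_mut 1. The log2 fold change of Crabp1 then ran from 0.11 to 4.14 for AR3_mut over AR3_Het, 2.76 to 7.51 for AR3_mut over nude and −4.08 to −1.93 for nude over AR3_Het. Aldh1a1, Aldh1a2 and Rbp4 kept their direction in all 17 alternatives for nude over AR3_Het (4.97 to 5.69, 5.45 to 6.47 and 2.99 to 3.62), as did Aldh1a1, Aldh1a2 and Aldh1a3 for AR3_mut over AR3_Het (2.96 to 3.66, 4.10 to 5.37 and −1.69 to −1.23). The causes were not tested. At 9 to 23 counts per library, Rarb is limited by depth.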
